A study of Mus musculus with 2 samples.

Results

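Cluster 0 is 1 of 12 groups into which the authors' deposited cluster numbers divide a set of mouse natural killer (NK) cells. Its members were taken as the cells numbered 0 whose hashtag, an antibody-borne barcode that marks the population of origin, was assigned to 1 population. Such cells are called singlets here. This gave 386 of the 7479 singlets of the series. The NK cells were sorted as lineage-negative, NK1.1+ and CD49b+ from bone marrow, spleen and subcutaneous tumours of the mouse colon carcinoma line MC38, in C57BL/6 mice 12 weeks old. The labels name no further allele or genotype. The mice had food ad libitum or were put through cyclic fasting. The tag list names a fasted, a refed and an ad libitum population of each of the 3 tissues and a naive spleen population. The labels do not say what naive stands for, whether those mice carried tumours, or how many mice gave cells to a population. Tumours alone were digested, for 30 minutes at 37C with Collagenase 4 and DNase I, while spleens and bone marrow were not. The tagged cells shared 1 lane of a droplet instrument, so each population was 1 sample. The differences below therefore have no replicates behind them and carry no p-value.

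NK cells are innate lymphocytes that kill transformed cells with perforin and granzymes and that release interferon gamma and chemokines when their receptors are engaged. Type I interferon, made by many cells on sensing nucleic acids, acts on NK cells through its receptor and switches on a large set of antiviral genes. In tumours NK cells also meet transforming growth factor beta (TGF-beta), which is known to push them towards a tissue-resident phenotype. Activating receptors signal through calcium, AP-1 and NF-kB, and immediate early genes such as Nr4a1 are among the first to be transcribed.

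The singlets of cluster 0 came mostly from tumours, and above all from tumours of fasted mice. Of its 386 cells, 332 (86%, exact 95% binomial interval 82.1 to 89.3%) carried a tumour tag, and 301 (78%, 73.5 to 82%) carried the tag of the fasted tumour population. These intervals, like all others below, cover counting error only, since animals were not told apart. The shares also leave out 1574 of the 1960 classified cells of the cluster (80.3%), which were called doublets and whose population is not known. Whether hashtag calls failed alike in all populations was not tested. Seen from the populations, cluster 0 held 301 of 801 fasted tumour cells (37.6%, 34.2 to 41%) and 28 of 95 refed tumour cells (29.5%, 20.6 to 39.7%). It held 3 of 46 ad libitum tumour cells (6.52%, 1.37 to 17.9%). The intervals of the fasted and refed shares overlapped, and that of the ad libitum share lay below both. The ad libitum tumour share rests on few cells, of which 16 of 46 lay in cluster 7 and 9 of 46 in cluster 11. With 3 cells, ad libitum tumour cells were counted here and not profiled.

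**Figure D1:**
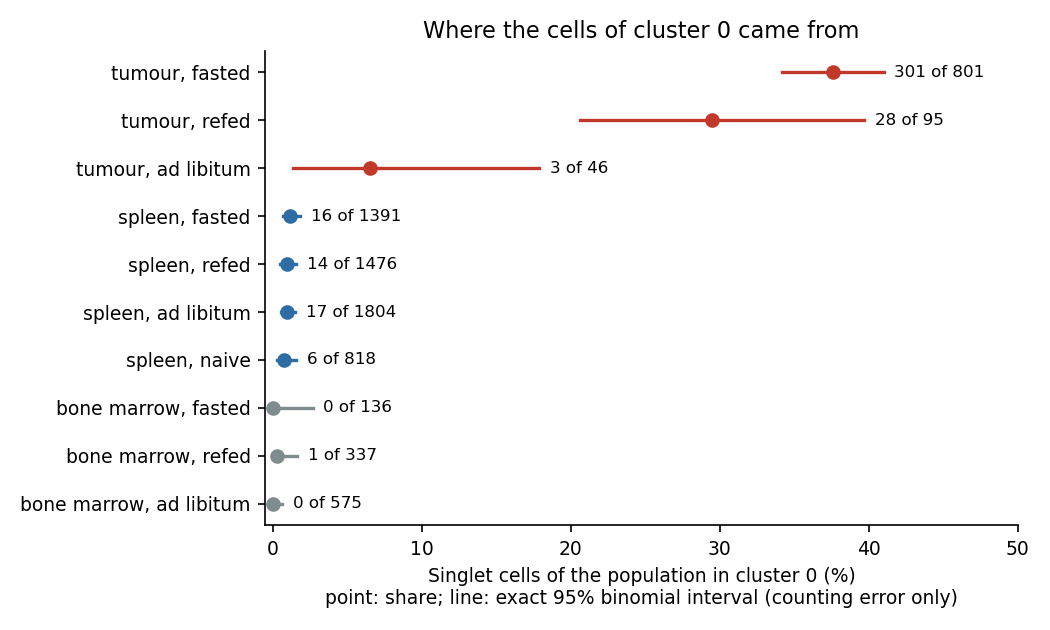
Share of each population's singlets that lay in cluster 0 (points, percent) with exact 95% binomial intervals (lines) and the cell numbers. The fasted tumour share was 37.6%, the refed 29.5% and the ad libitum 6.52%, while no spleen or bone marrow share passed 1.15%.

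Outside tumours the cluster was rare. It held 16 of 1391 fasted, 14 of 1476 refed, 17 of 1804 ad libitum and 6 of 818 naive spleen cells, or 53 of 5489 spleen cells in all (0.966%, 0.724 to 1.26%). The 4 spleen shares lay between 0.733% and 1.15%, with overlapping intervals, so no order by feeding could be read from them. Of bone marrow cells, 1 of 1048 lay in the cluster (0.0954%, 0.00242 to 0.53%), from the refed population. In the fasted population 0 of 136 cells did, which allows a share of up to 2.68% by the exact interval.

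The label was checked against the markers of the sorted cell and of the other cells the gate could hold. The 15 NK cell markers summed to 27288 CPM (UMIs, or counted RNA molecules, scaled to a total of 1000000 per group) in cluster 0 and to 27767 CPM in all other singlets. Of these sums Gzma gave 13173 and 11702 CPM. At least 3 of the markers were held by 385 of 386 cells. Ncr1, which encodes the NK receptor NKp46, stood at 384 CPM, lower than in the other singlets. Klrb1c, the NK1.1 gene, was at 462 CPM and Eomes, a transcription factor of NK cells, at 191 CPM. Itga2, the CD49b gene, was at 28.9 CPM and Itga1, the CD49a gene of tissue-resident cells and type 1 innate lymphoid cells, at 5.34 CPM. The 13 markers of type 1 innate lymphoid cells summed to 676 CPM against 2738 CPM in the other singlets, of which Gzmc gave 259 and 2141 CPM. At least 3 of these markers were held by 68 of 386 cells (17.6%), against 17.3% of the other singlets. Markers of epithelial tumour cells summed to 2.67 CPM, of fibroblasts to 0.89 CPM, of neutrophils to 29.8 CPM and of monocytes and macrophages to 58.8 CPM, with C1qc, Adgre1 and Mrc1 at 0. T cell markers summed to 1074 CPM, of which Trbc1, a T cell receptor constant gene that NK cells can transcribe, gave 607 CPM, and Cd4, Cd5 and Cd6 were at 0. In all, 108 of 386 cells (28%) held at least 3 of the 14 T cell markers, against 21% of the other singlets. Markers of plasmacytoid dendritic cells were higher than in the other singlets, at 1471 against 525 CPM, of which Irf8 gave 1343 and 432 CPM. At least 3 of them were held by 6.74% against 3.91% of cells.

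Cells of cluster 0 were not shallow. Their median was 5035.5 UMIs and 1682.5 genes, against 4364 UMIs and 1623 genes in the other singlets, and mitochondrial genes took a median of 2.17% of UMIs against 2.89%. The cluster stood apart in the hashtag calls. Of its 1960 classified cells, 1574 (80.3%, 78.5 to 82%) were called doublets and so are no members, against 4032 of 11125 (36.2%, 35.3 to 37.1%) in the rest. In the other clusters the share ran from 22.6% in cluster 5 to 62.9% in cluster 11. No cell barcode occurred more than once.

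To describe the cluster, UMIs were summed over its cells and over all 7093 other singlets, and a difference is the log2 ratio of CPM + 5, a scale on which the difference of a low gene is understated. A gene was measured if it reached 20 CPM on at least 1 side. Where members of a list are counted below as higher or lower, a difference of at least 2-fold is meant, unless the sign of the ratio is counted. Of 5486 genes measured, 328 (5.98%) were at least 2-fold higher in cluster 0 and 160 (2.92%) at least 2-fold lower, 488 (8.9%) in all. With TMM scaling factors these numbers were 394 and 113, because that scaling moved the median of all genes from -0.12 to 0.02. The clusters were presumably drawn from these same expression values, although the sources do not say so. A difference between cluster 0 and other cells is therefore a description of what the cluster is and no test.

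**Figure D2:**
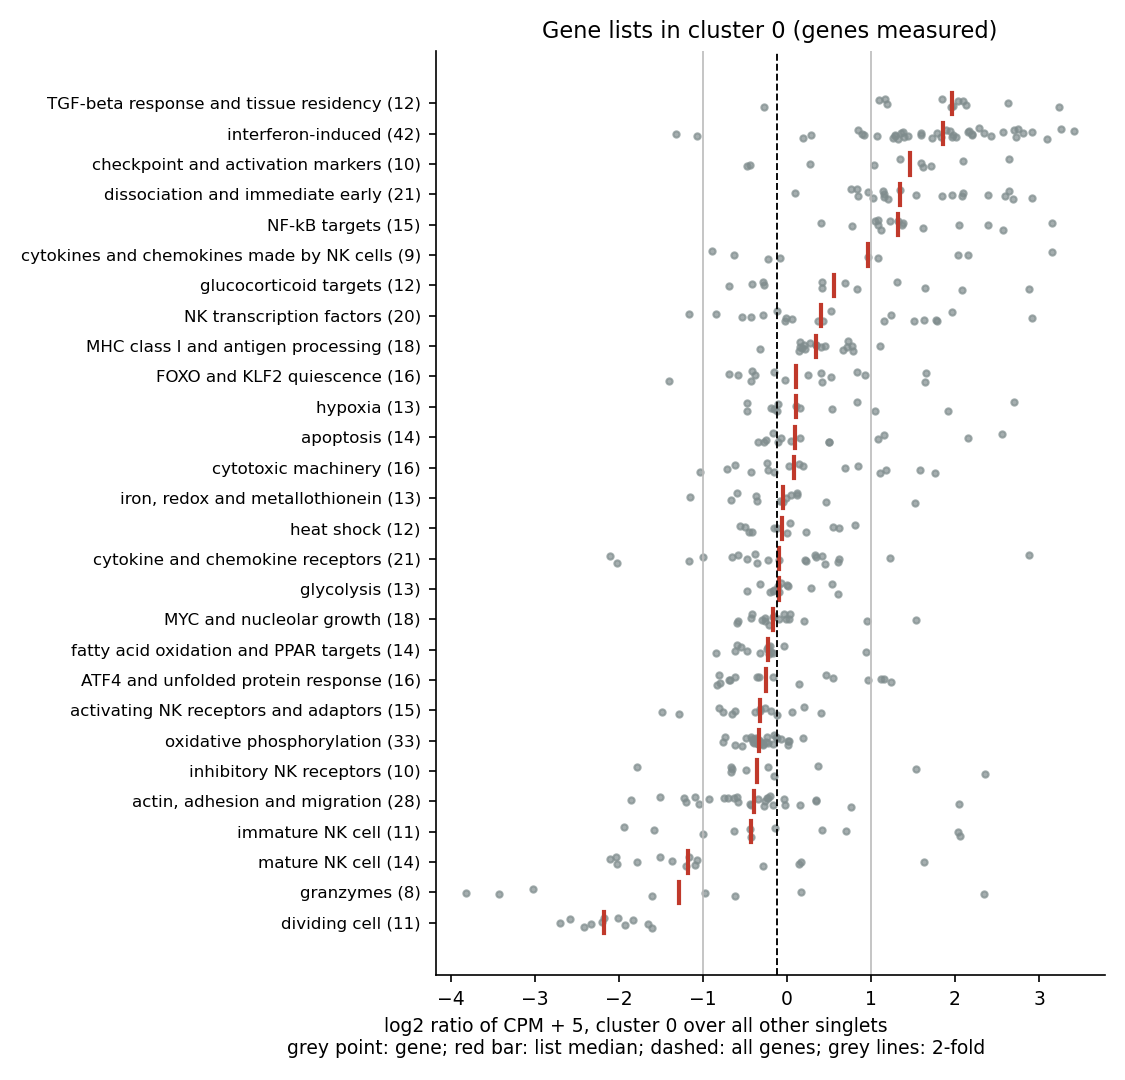
Each grey point is a gene measured (lists with at least 8, points moved slightly to part them) in the comparison of cluster 0 with all other singlets, by gene list, on the log2 ratio of CPM + 5. Red bars are list medians, from 1.97 for TGF-beta response and tissue residency down to -2.18 for dividing cells, and the dashed line is the median of all genes, -0.12.

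Interferon-induced genes, the longest of the lists, gave the largest number of higher genes. Of 42 measured, 35 were at least 2-fold higher in cluster 0 and 2 at least 2-fold lower, with a median log2 ratio of 1.86 against -0.12 over all genes. Cxcl10, an interferon-induced chemokine that draws CXCR3-bearing lymphocytes and that the list did not hold, reached 1008 CPM in cluster 0 and 88.9 CPM in the others, a log2 ratio of 3.43 (95% counting interval 3.36 to 3.51). Ifit3, which helps to hold back viral RNA, stood at 268 against 20.4 CPM (3.42, 3.28 to 3.56) and Ifi204, a member of the DNA-sensing Ifi200 family, at 270 against 23.8 CPM (3.26, 3.12 to 3.39). Rsad2, the antiviral enzyme viperin, was at 207 against 19.7 CPM and Ifit1 at 157 against 16.4 CPM. All 5 were higher in cluster 0 than in any other cluster. Isg15, a ubiquitin-like protein, was at 678 against 96.9 CPM and Irf7, the factor that amplifies the response, at 320 against 67.9 CPM. The members that lay at least 2-fold lower were Ly6c2 (227 against 482 CPM) and Ifitm2 (26.3 against 73.2 CPM). Ifit3 and Ifit3b, and the genes of the Ifi200 family, are near copies, so the split of reads among them is uncertain.

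To show the sequence that this group of genes is known to share, promoter windows of 300 bases from RefSeq (build GRCm38.p6, 250 bases before to 50 after the start) were searched on both strands for GAAANNGAAA, the core of the interferon-stimulated response element. Of the 42 measured interferon-induced genes, 33 had a window and 20 of these (60.6%) held the motif. It was found in 208 of 4301 measured genes with a window (4.84%) and in 1131 of all 32851 windows (3.44%). Of the 12 genes with the highest ratio, 9 had a window and 5 of them held it. Ifi204, Pmepa1 and Ccl4 are not in the table. The following stretches lie before the RefSeq start of 5 genes of the list and of Cxcl10. Each has the first match wholly before that start in capitals. They read in the direction of the gene, so that a match on the other strand reads as the reverse complement. In the GENCODE M21 annotation Slfn5 starts earlier, at chr11:82951349, so its stretch lies inside the gene as drawn there.
Cxcl10, chr5:92349073-92349122, minus strand: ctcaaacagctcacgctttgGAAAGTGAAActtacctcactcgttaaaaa
Ifit3, chr19:34583353-34583402, plus strand: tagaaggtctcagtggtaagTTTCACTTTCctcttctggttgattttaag
Rsad2, chr12:26456543-26456592, minus strand: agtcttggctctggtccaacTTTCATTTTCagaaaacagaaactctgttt
Ifit1, chr19:34640765-34640814, plus strand: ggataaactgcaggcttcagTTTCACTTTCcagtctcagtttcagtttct
Slfn5, chr11:82951927-82951976, plus strand: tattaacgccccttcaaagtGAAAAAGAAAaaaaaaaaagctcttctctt
Isg15, chr4:156200867-156200916, minus strand: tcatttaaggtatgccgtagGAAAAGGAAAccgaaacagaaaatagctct

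Further motifs were rarer. GGGANNTTCC, a form of the kappaB site of NF-kB, was found in the windows of Cxcl10 and Isg20 among the 9 of the highest genes that had one, in 2 of 12 NF-kB targets with a window, and in 84 of 4301 measured genes (1.95%). The Cxcl10 copy lies 159 bases before the start, nearer to it than the interferon motif at 213 bases, and is shown for that reason.
Cxcl10, chr5:92349019-92349068, minus strand: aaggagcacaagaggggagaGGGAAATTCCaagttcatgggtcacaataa
The cyclic AMP response element TGACGTCA was found in none of the 9, in 3 of 17 immediate early genes with a window (17.6%), which were Dusp1, Btg2 and Ppp1r15a, and in 177 of 4301 measured genes (4.12%). A match is a description of the window and does not show that a factor was bound.

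Genes of the TGF-beta response and of tissue residency were higher almost throughout. Of 12 measured, 11 were at least 2-fold higher and none at least 2-fold lower, with a median of 1.97. Pmepa1, a TGF-beta target that dampens the pathway, stood at 414 against 39.3 CPM (3.24, 3.13 to 3.35), and its next level among the other clusters was 214 CPM, in cluster 8. Rgs1, which blunts chemokine receptor signalling in tissue-resident lymphocytes, was at 2233 against 356 CPM. The SMAD inhibitors Smad7 (434 against 117 CPM) and Skil (221 against 52.3 CPM) and the ligand gene Tgfb1 (625 against 158 CPM) were also higher. Cd9 lay at 220 against 266 CPM. Cxcr4, the receptor for CXCL12 that retains cells in tissue, reached 522 CPM against 66.4 CPM (2.88, 2.79 to 2.98), and the next cluster, again cluster 8, had 327 CPM. Sult2b1, a sulfotransferase of cholesterol, was at 122 against 12.4 CPM.

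Checkpoint and activation markers, the immediate early genes and NF-kB targets were higher than in all other singlets as well. Of 10 checkpoint and activation markers measured, 7 were at least 2-fold higher and none at least 2-fold lower, while 2 had a ratio below 0. Cish, which restrains interleukin-15 signalling, stood at 228 against 32.4 CPM (log2 ratio 2.64), Cd69, an early activation marker, at 573 against 130 CPM, and Tnfrsf9, the 4-1BB gene, at 276 against 106 CPM. Of 21 immediate early genes, 16 were at least 2-fold higher and none lower (median 1.34). Nr4a1, an orphan nuclear receptor that follows receptor triggering, was at 341 against 40.7 CPM, and Nfkbiz, an inducible partner of NF-kB, at 464 against 72.1 CPM. Jun was at 1082 against 528 CPM. Of 15 NF-kB targets, 13 were at least 2-fold higher and none lower. Tnfaip3, the A20 feedback inhibitor, was at 511 against 82.2 CPM and Icam1, an adhesion molecule, at 304 against 69.7 CPM. Against other groups made mostly of tumour cells the medians were smaller. Against cluster 8, 2 of 9 checkpoint markers (median 0.35) and 7 of 15 NF-kB targets (0.79) were higher and none lower. Against cluster 11, 3 of 10 (0.73) and 6 of 16 (0.85) were higher, and 1 and 2 lower. Among fasted tumour cells inside against outside the cluster, 2 of 10 (0.44) and 5 of 16 (0.59) were higher and none lower. Digestion of tissue is known to induce immediate early genes, and tumours alone were digested. Among cells from fasted tumours, all digested alike, the immediate early list had a median of 1.06 in cluster 0 over the rest. Between the 53 spleen cells of cluster 0, from tissue not digested, and its tumour cells the median was -0.14. The part of digestion in the tumour cells' levels was not tested.

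Chemokine and cytokine genes of NK cells divided. Ccl4, a chemokine that recruits other leukocytes, was both abundant and among the 12 highest ratios, at 5197 CPM against 575 CPM (3.16, 3.13 to 3.20), and the next cluster had 1241 CPM. Its neighbour Ccl3 was at 1099 against 516 CPM (1.08). Ifng, the interferon gamma gene, stood at 812 against 178 CPM (2.16) and Xcl1, the ligand of XCR1 on cross-presenting dendritic cells, at 2483 against 601 CPM (2.04). All 4 were highest in cluster 0 of the 12 clusters. On mm10 (GENCODE M21), the protein-coding genes Ccl3 (chr11:83647844-83649355), Ccl4 (chr11:83662584-83664683) and Ccl5 (chr11:83525778-83530518) lie close together. Ccl5, a chemokine gene kept at a high level in resting NK cells, was alike in both (14538 against 15343 CPM, -0.08). Ltb, the lymphotoxin beta gene, was at 115 against 181 CPM. Of the 9 genes measured in this list, 4 were at least 2-fold higher and none at least 2-fold lower, while 4 had a ratio below 0.

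**Figure D3:**
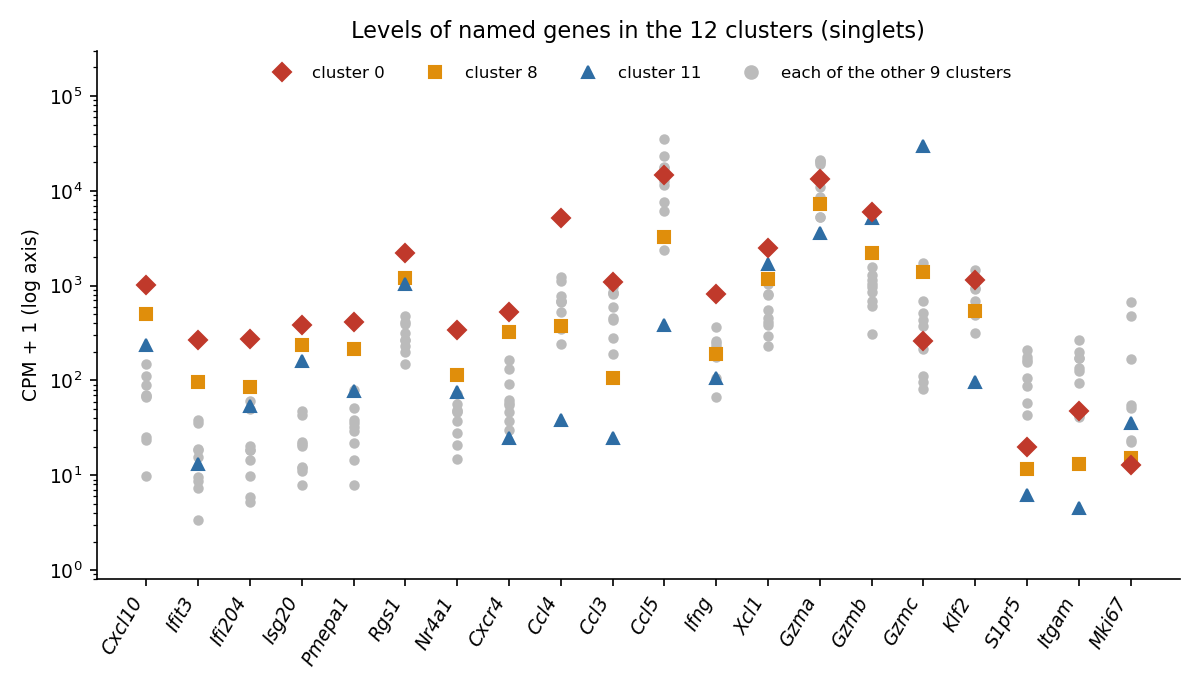
CPM + 1 (log axis) of 20 genes in each of the 12 clusters, with cluster 0 as red diamonds, clusters 8 and 11 as orange squares and blue triangles, and the others in grey. Ccl4 was at 5197 CPM in cluster 0 and at 37.4 CPM in cluster 11, while Gzmc was at 259 CPM and 29484 CPM.

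The granzymes, proteases that enter the target cell, divided more sharply. Gzmb stood at 5952 against 1167 CPM (2.35), the highest of the 12 clusters, with cluster 11 next at 5134 CPM. Gzma was at 13173 against 11702 CPM (0.17), the fifth of the 12. Gzmc was at 259 against 2141 CPM (-3.02, -3.14 to -2.91), Gzmd at 13.4 against 192 CPM, Gzme at 1.34 against 84.3 CPM, and Gzmf at 45.8 against 73 CPM. Of the 8 measured, 1 was at least 2-fold higher and 4 at least 2-fold lower, with a median of -1.29. The other singlets include the 89 cells of cluster 11, where Gzmc stood at 29484 CPM, and those of cluster 8, at 1387 CPM. Cluster 11 gave 2300991 of the 40314001 UMIs of the other singlets, so few cells raised the Gzmc level there. Gzmc, Gzmd, Gzme, Gzmf and Gzmg are near copies in 1 gene cluster that also holds Gzmb (Gzmc at chr14:56231441-56234656 and Gzmb at chr14:56258838-56262260), and reads may be split among them. The median was -0.09 when cells with at least 3 markers of T cells, B cells, myeloid cells or other types outside the innate lymphoid lineage were left out. Prf1, the pore-forming perforin, was at 306 against 277 CPM (0.14). Serpinb9, which shields the killer cell from its own granzyme B, was at 794 against 262 CPM (1.58), and Fasl, a death ligand, at 207 against 93.2 CPM (1.11).

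Genes of terminal maturation were lower in cluster 0 than in all other singlets. Of 14 measured, 10 were at least 2-fold lower and 1 at least 2-fold higher, with a median of -1.18. This was a difference from the other singlets as a whole, most of them from spleen. Against cluster 8 all 12 measured maturation genes had a ratio above 0 and 2 passed 2-fold (median 0.81). Against cluster 11, 6 of 12 were at least 2-fold higher and none at least 2-fold lower, while 3 had a ratio below 0 (median 0.85). Among fasted tumour cells inside against outside the cluster, 3 of 12 were at least 2-fold higher and none at least 2-fold lower. There 8 had a ratio above 0 and 4 below it. The median was 0.24 and ran from -0.03 to 0.57 over the alternative settings. Against the other singlets, S1pr5, the receptor that lets NK cells leave tissue for the blood, stood at 19.1 against 93.2 CPM (-2.02), Klrg1, an inhibitory receptor of late stages, at 23.6 against 94.2 CPM (-1.79), and Zeb2, a factor of terminal maturation, at 125 against 286 CPM (-1.17). Itgam, the CD11b gene, was at 47.2 against 106 CPM. The exception was Irf8, a factor that NK cells raise on activation, at 1343 against 432 CPM (1.63). Cd160, an activating receptor, was at 44.1 against 133 CPM, and Ncr1 lay 1.29 lower on the log2 scale.

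Receptors and regulators outside these groups were mixed. Of 21 cytokine and chemokine receptors 2 were at least 2-fold higher, Cxcr4 and Ifngr1, a chain of the interferon gamma receptor (1062 against 451 CPM), and 3 lower. Of 10 inhibitory receptors 2 were higher, Lilrb4a at 300 against 54.6 CPM and Klrb1b at 247 against 82.6 CPM, and Klrg1 was lower. Of 20 NK transcription factors 8 were higher and 1 lower. Among the higher were Nfil3, which NK cell development needs (122 against 31.9 CPM), and Bhlhe40, a factor of cytokine output (663 against 190 CPM), while Tbx21, the T-bet gene, was at 74.8 against 110 CPM and Eomes at 191 against 208 CPM. Of 18 genes of MHC class I and antigen processing 17 had a log2 ratio above 0 and 1 passed 2-fold, H2-T23, the Qa-1 gene whose product is read by NKG2A (751 against 345 CPM, median of the list 0.35).

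Smaller sets within other lists were higher than in all other singlets too. Of 14 apoptosis genes 4 were at least 2-fold higher and none at least 2-fold lower, while 6 had a ratio below 0. Cdkn1a, the p21 cell cycle inhibitor, was at 200 against 29.8 CPM and Bcl2l11, the death inducer BIM, at 465 against 101 CPM. The survival gene Bcl2 was at 766 against 339 CPM. Of 13 hypoxia genes 3 were higher, Vegfa (297 against 41.4 CPM), Hilpda (265 against 66.5 CPM) and Ndrg1 (25.8 against 9.92 CPM), while the list median was 0.11. Of 12 glucocorticoid targets 4 were higher, among them Tsc22d3, the GILZ gene, at 391 against 122 CPM, and Dusp1, a phosphatase that also belongs to the immediate early list, at 429 against 97.4 CPM. Another target, Fkbp5, was at 32.5 against 40.4 CPM. Of 28 genes of actin, adhesion and migration 6 were lower and 1 higher, with the integrin genes Itgb2 at 126 against 368 CPM and Itga4 at 201 against 473 CPM. The nearest cluster, cluster 8, differed less. Against it none of 12 hypoxia genes and none of 11 glucocorticoid targets passed 2-fold. There 2 of 14 apoptosis genes and 3 of 28 actin genes were higher and none lower. Against cluster 11, 1 of 14 hypoxia genes was higher and 4 lower, while 8 of 11 glucocorticoid targets were higher and none lower.

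Dividing cells were few in the cluster. All 11 measured genes of division were at least 2-fold lower than in all other singlets (median -2.18), with Mki67 at 12 against 106 CPM. At least 3 of these genes were held by 4 of 386 cells (1.04%), against 7.29% of the other singlets and 2.91% of cluster 8. Their sum was 117 CPM in cluster 0, 721 CPM in the other singlets, 123 CPM in cluster 8 and 445 CPM in cluster 11. Metabolic lists stood near the median of all genes. Of 33 genes of oxidative phosphorylation none passed 2-fold (median -0.33), of 13 glycolytic genes none did (-0.10), and of 14 genes of fatty acid oxidation and PPAR targets none did (-0.23). The ratio was below 0 for 29, 8 and 13 of these genes, in this order, while the median of all genes was -0.12. The other genes with the lowest ratios were S100a8 (6.68 against 179 CPM), S100a9 (15.1 against 247 CPM), Camp (3.56 against 70.7 CPM), Lyz2 (18.7 against 236 CPM) and Apoe (2.67 against 87.7 CPM), genes of neutrophils, monocytes and macrophages. Among the other singlets, 53.9% of S100a8 UMIs came from 1 cell. Whole marker lists moved alike, with neutrophil markers at 29.8 against 565 CPM and monocyte and macrophage markers at 58.8 against 465 CPM. Low levels were shared with the other tumour clusters. These 2 sums were 23.8 and 30.9 CPM in cluster 8, and 6.52 and 123 CPM in cluster 11.

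Of the 11 other clusters, cluster 8 was nearest to cluster 0. Its 275 singlets were also mostly from tumours (231, 84%) and included 222 of 801 fasted tumour cells. Of 5137 genes measured, 147 (2.86%) were at least 2-fold higher in cluster 0 and 14 (0.273%) lower, 161 (3.13%) in all. Cluster 1 came next with 442 (8.01%). With TMM factors the comparison with cluster 8 gave 94 higher and 32 lower, and with totals that leave out ribosomal protein and mitochondrial genes 66 and 65. Ribosomal protein genes took a median of 34.4% of UMIs in cluster 8 and 23.9% in cluster 0.

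What set cluster 0 apart from cluster 8 were the chemokines and a higher level of the same interferon genes. Ccl4 stood at 5197 against 372 CPM (3.78, 3.68 to 3.89), Ccl3 at 1099 against 104 CPM (3.34), Ccl5 at 14538 against 3225 CPM (2.17) and Ifng at 812 against 191 CPM (2.06). Of 42 interferon-induced genes, 24 were at least 2-fold higher and none lower (median 1.05, against 0.17 over all genes), with Rsad2 at 207 against 53.7 CPM. Of 21 immediate early genes 11 were higher (median 1.01). The TGF-beta list had 2 of 12 at least 2-fold higher. Gzmc was lower, at 259 against 1387 CPM (-2.40). Nme1 and C1qbp, genes of nucleotide supply and of mitochondrial translation, were at 217 against 444 CPM and 55.6 against 117 CPM. H2-Eb1, a class II gene of antigen-presenting cells, had a log2 ratio of 2.34, but 73.6% of its UMIs in cluster 0 came from 1 cell.

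Cluster 11 was the other cluster made of tumour cells, with 85 of 89 singlets (95.5%), and it was far deeper, at a median of 26877 UMIs. Of 5360 genes measured, 835 (15.6%) were at least 2-fold higher in cluster 0 and 336 (6.27%) lower, 21.8% in all. TMM factors gave 559 and 552. Chemokines again led: Ccl4 was at 5197 against 37.4 CPM (6.94), Ccl3 at 1099 against 23.9 CPM (5.26) and Ccl5 at 14538 against 386 CPM (5.22). Klf2, a factor of quiescence and recirculation, was at 1157 against 96 CPM (3.52), and 13 of 15 genes of the FOXO and KLF2 list were at least 2-fold higher. The interferon list had 35 of 42 higher and 4 lower (median 1.92), and the immediate early list 20 of 21 higher (median 1.70).

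Lower in cluster 0 than in cluster 11 were the granzymes other than Gzma and Gzmb, glycolysis and sterol synthesis. Gzmc stood at 259 against 29484 CPM (-6.80, -6.92 to -6.69), Gzmd at 13.4 against 2543 CPM and Gzme at 1.34 against 1061 CPM. Of 16 glycolytic genes 12 were at least 2-fold lower and none higher (median -1.34), with Gapdh at 634 CPM in cluster 0 and a log2 ratio of -1.73, and Ldha, lactate dehydrogenase, at -1.71. Of 10 genes of sterol and fatty acid synthesis, 6 were lower and none higher. Tnfsf11, the RANKL gene, had no UMI in cluster 0 and 70 CPM in cluster 11. Against a floor of 3 counts over the cluster, it was at least 52.4-fold lower.

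To hold tissue and feeding constant, the 301 fasted tumour cells inside cluster 0 were set against the 500 outside it. Of 5287 genes measured, 214 (4.05%) were at least 2-fold higher inside and 234 (4.43%) lower, 8.47% in all. TMM factors gave 157 and 269, and totals without ribosomal protein and mitochondrial genes 111 and 306. The mean of CPM over cells, in which each cell counts alike, gave 50 and 136. Ccl4 was at 3875 CPM inside and 460 CPM outside (3.06, 2.99 to 3.13), Ccl3 at 712 and 151 CPM (2.20), Ifng at 691 and 147 CPM (2.19) and Ccl5 at 14951 and 4046 CPM (1.88). Klf2 was at 1219 and 374 CPM (1.69), and Mx1, an antiviral GTPase, at 122 and 33 CPM (1.74). Of 42 interferon-induced genes 22 were at least 2-fold higher and 4 lower (median 1.09). Of 14 genes of the TGF-beta list 5 were higher and 2 lower (median 0.84), and Pmepa1 was at 455 and 189 CPM. Of 14 glycolytic genes 4 were lower inside and none higher (median -0.76).

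Outside cluster 0 the fasted tumour cells held the Gzmc-high cells and most RNA of macrophages. Gzmc was at 205 CPM inside and 10018 CPM outside (-5.58, -5.74 to -5.42). Macrophage and monocyte markers summed to 30.4 CPM inside and 1854 CPM outside, with at least 3 such markers in 2 and 25 cells. C1qa, a complement gene of macrophages, was at 2.54 and 241 CPM and Apoe at 3.17 and 627 CPM. Without cells that held at least 3 myeloid markers, the log2 ratios of C1qa and Apoe were 0.53 and 0.09, and 141 genes were at least 2-fold lower inside. The interferon median was then 1.22. The median depth was 4710 UMIs inside and 6196 outside, and the part of depth in these differences was not tested.

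Feeding could be compared within cluster 0 between the 28 refed and the 301 fasted tumour cells, told apart by their hashtags. Of 5293 genes measured, 232 (4.38%) were at least 2-fold higher in refed cells and 291 (5.5%) lower, 9.88% in all. TMM factors gave 197 and 348. Glycolytic genes were higher in refed cells, 6 of 14 by at least 2-fold and none lower, with a median of 0.95 against 0.01 over all genes and 0.78 without the highest cell of each gene. Gapdh had a log2 ratio of 1.35, Tpi1, triosephosphate isomerase, 1.31 and Ldha 1.25. Of 43 interferon-induced genes 34 had a ratio above 0, 5 were at least 2-fold higher and 1 lower (median 0.33, or 0.03 without the highest cells). The NF-kB list had a median of -0.04, or -0.33 without the highest cells. Of 21 immediate early genes 18 had a ratio below 0, with 1 past 2-fold in each direction (median -0.43), and of 12 genes of the TGF-beta list 11 did, with 1 at least 2-fold lower (median -0.40).

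Lower in refed cells were Cxcr4, at 173 against 658 CPM (-1.90, -2.35 to -1.47), Klrb1a, an NKR-P1 receptor, at 66.9 against 207 CPM (-1.56), and Ahr, the aryl hydrocarbon receptor, at 11.8 against 90.1 CPM (-2.50, -3.70 to -1.24). Ccl5 was at 7435 against 14951 CPM, Klf2 at 665 against 1219 CPM, and Ccl4 at 4217 against 3875 CPM. Gzmb was at 9701 against 5230 CPM. Gzmc was at 909 against 205 CPM (2.12), of which 46.3% came from 1 of the refed cells, and 1.47 remained without the highest cell of each side. Single cells made most of the highest ratios. All 56 UMIs of Slpi, 96.8% of those of Fcgr1 and 94.6% of those of Ms4a6d came from 1 refed cell each. Without the highest cell of each gene, 69 genes were at least 2-fold higher and 550 lower. Refed cells were deeper, at a median of 7931.5 against 4710 UMIs, and their monocyte and macrophage markers summed to 315 against 30.4 CPM. The part of depth and of these cells in the differences was not tested.

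**Figure D4:**
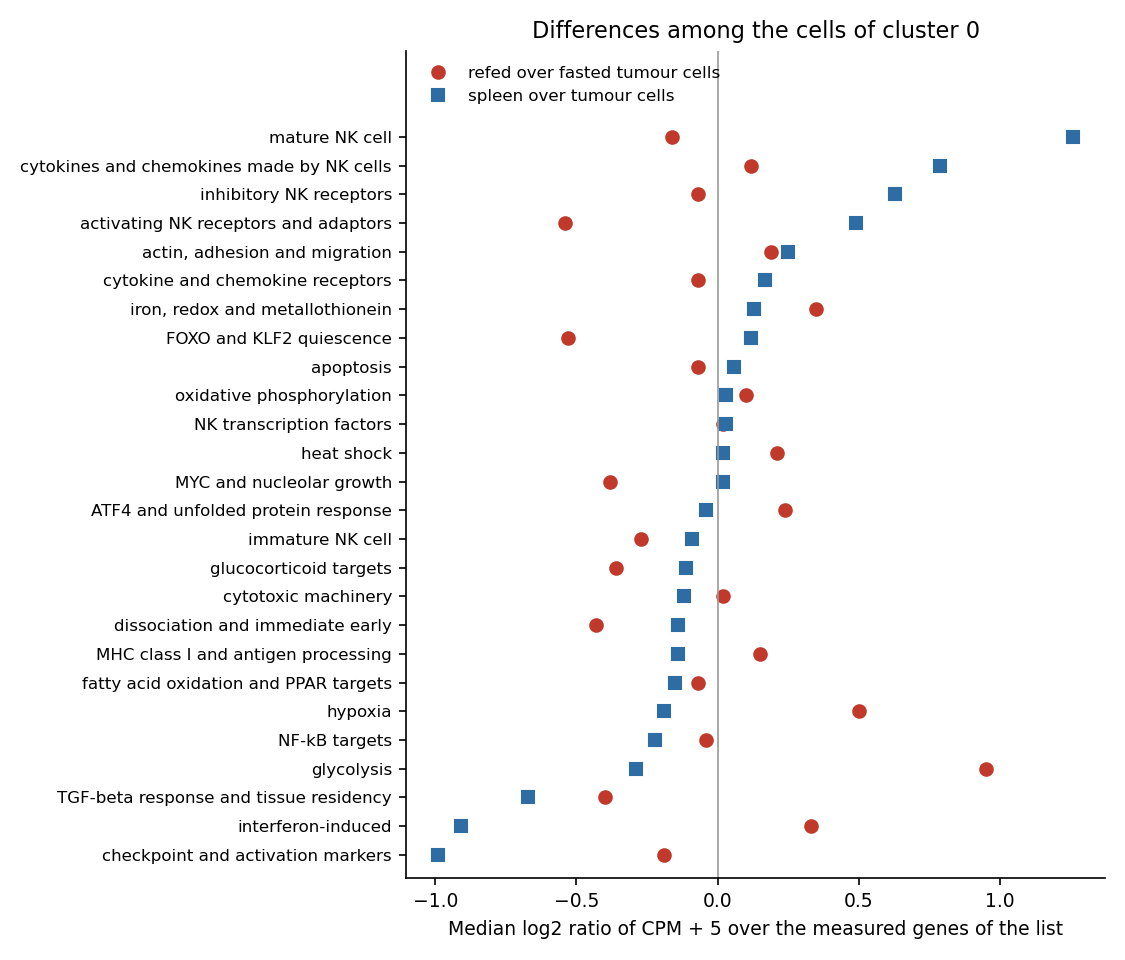
Median log2 ratio (CPM + 5) of each gene list with at least 8 measured genes in both comparisons, among cells of cluster 0, for refed over fasted tumour cells (red circles) and spleen over tumour cells (blue squares). Glycolysis lies at 0.95 for refeeding, and the mature NK cell list at 1.26 and the interferon list at -0.91 for spleen.

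The 53 spleen cells of cluster 0, summed over the 4 spleen populations because none had 20 cells, were set against its 332 tumour cells. Of 5428 genes measured, 196 (3.61%) were at least 2-fold higher in spleen cells and 178 (3.28%) lower, 6.89% in all. TMM factors gave 140 and 231. The spleen cells were deeper, at a median of 7019 against 4860 UMIs, and the part of depth was not tested. Maturation genes were higher in spleen cells, 7 of 13 by at least 2-fold and none lower (median 1.26, against 0.08 over all genes). Klrg1 stood at 84 against 11.8 CPM (2.40, 1.71 to 3.06), S1pr5 at 65 against 10.2 CPM (2.20), Cma1, a mast cell protease that NK cells also transcribe, at 127 against 26.3 CPM (2.08) and Itgam at 119 against 33.3 CPM (1.70). Cd160 was at 141 against 25.2 CPM (2.27) and Ccl3 at 2584 against 795 CPM (1.69). Spp1, the osteopontin gene, had a ratio of 2.87 but 0.69 without the highest cells, since 82.8% of its spleen UMIs came from 1 cell.

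Interferon-induced genes were lower in the spleen cells, 19 of 43 by at least 2-fold and none higher (median -0.91). Cxcl10 was at 217 against 1172 CPM (-2.41, -2.74 to -2.09), Ifi27l2a, a small mitochondrial protein gene, at 19 against 247 CPM (-3.39) and Ly6a, the Sca-1 gene, at 29.8 against 195 CPM (-2.52). Of 10 checkpoint and activation markers, 5 were lower and 1 higher (median -0.99). Plac8 was at 333 against 1215 CPM and Gzmc at 67.7 against 299 CPM. H2-Eb1, H2-Ab1 and Cd74, class II genes, had low ratios too, but 73.6%, 88.5% and 96% of their tumour UMIs came from 1 cell each.

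The spleen cells of cluster 0 carried its leading genes above the level of the spleen cells outside it. These genes were picked on these expression values, and the cluster presumably was too, so this is a description and no test. Ccl4 stood at 11432 CPM inside and 708 CPM outside, Ifng at 1268 and 209 CPM, Xcl1 at 3094 and 423 CPM, and Gzmb at 6174 and 919 CPM. Nr4a1 was at 382 and 30.6 CPM, Pmepa1 at 252 and 17.5 CPM and Ifit3 at 114 and 11.6 CPM. The order within cluster 0 differed by gene: Ccl4, Ccl3 and Ifng were higher in its spleen than in its fasted tumour cells, and Cxcl10, Cxcr4 and Ifit3 lower.

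The interferon and chemokine genes were not spread evenly over the cells. With each cell thinned to 1500 UMIs, which left out 3 cells of cluster 0 and 499 others, a UMI of Cxcl10 was found in 23.8% of the cells of cluster 0 (33.4% unthinned) and in 3.37% of the other singlets (8.08% unthinned). A UMI of Ccl4 was found in 62.9% and 38.2% (75.1% and 60.7% unthinned), and in 4.55% of cluster 11, the lowest share among clusters 0, 8 and 11. Gzmb was found in 90.9% of the cells of cluster 0, Pmepa1 in 44.6% and Nr4a1 in 27.4%. At 1500 UMIs a gene of low level is missed in many cells by sampling alone. The shares of Pmepa1 and Nr4a1 therefore do not by themselves show an uneven spread. Cells with a Cxcl10 UMI were thus a minority of cluster 0 at this depth. The part of free RNA in these shares was not tested.

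In the main population the same was seen. Each of 299 fasted tumour cells of cluster 0 with enough depth was thinned to 1500 UMIs, and 2 were left out. A cell then held a median of 8 UMIs of the 43 interferon-induced genes, with 29.2 at the ninetieth percentile and 59 in the highest cell. In fasted tumour cells outside the cluster the median was 5. Ccl3 and Ccl4 together had a median of 2 UMIs, a ninetieth percentile of 20 and a highest of 84. Immediate early genes had a median of 24 UMIs against 11 outside. Across these cells, which share a library and a fixed depth, Spearman's rho of the interferon sum was -0.04 with the sum of Ccl3 and Ccl4, -0.02 with immediate early genes and -0.27 with MYC and nucleolar growth genes. That of NF-kB targets with immediate early genes was 0.27. In 447 fasted tumour cells outside the cluster the same 4 values were 0.16, 0.17, -0.23 and 0.47, in this order. These are descriptions over cells of 1 sample.

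**Figure D5:**
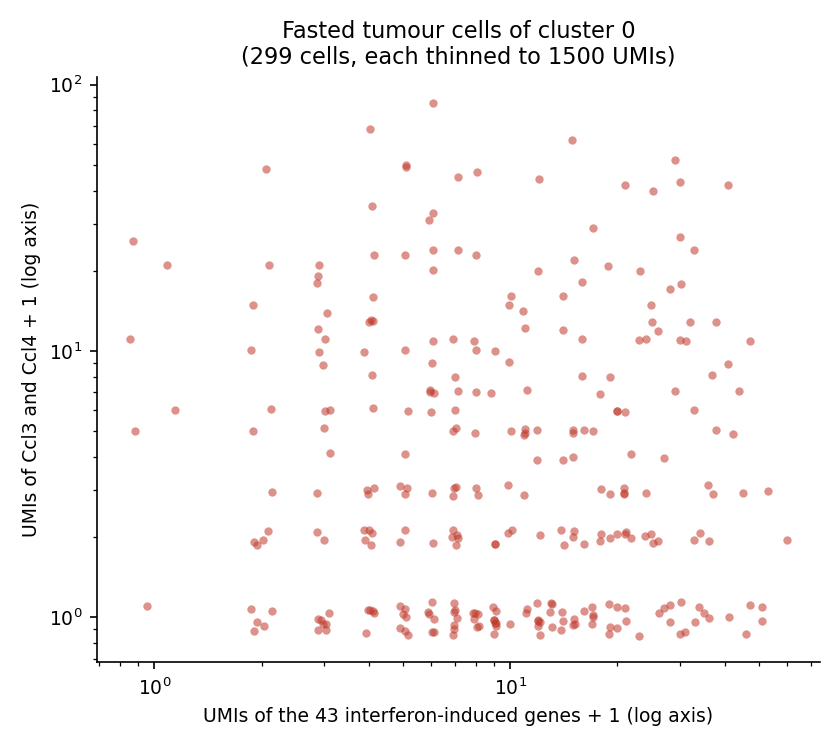
Each point is 1 of 299 fasted tumour cells of cluster 0 thinned to 1500 UMIs, by UMIs of 43 interferon-induced genes + 1 and of Ccl3 and Ccl4 + 1 (log axes, points moved slightly at random to part ties). Spearman's rho was -0.04, and no cell was near the highest values of both groups, 59 and 84 UMIs.

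The 1574 cells of the cluster called doublets were close to its singlets in expression. Of 5053 genes measured, 2 (0.0396%) were at least 2-fold higher in them and 11 (0.218%) lower, 0.257% in all. Their median depth was 5177 UMIs against 5035.5 in the singlets, while cells called doublets in other clusters had 5515.5. Hspa1a, an inducible heat shock gene, was at 66.4 against 21.4 CPM (1.44), Ifitm3 at 110 against 241 CPM (-1.10), Ccl4 at 5781 against 5197 CPM and Gzmb at 8560 against 5952 CPM. Which populations they came from is not known from the classification.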

How the data were processed

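Per the labels' protocols, hashtagged NK cells were run on 1 lane of a 10X Chromium instrument and the cell by gene table of UMI counts was built with seqc. The submitters' processing notes name the build mm10. The counts deposited by the authors were used as they stand: 13118 cells and 16800 gene columns, with 16789 distinct symbols, of which the columns of 11 repeated ones were summed. The deposited hashtag classification covered 13085 cells and left 33 without a call. The sources used here do not give how cells were clustered or hashtags classified. No cell filter was applied beyond the hashtag call, and no doublet caller was run.

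UMIs were summed per group and scaled to CPM, and gene intervals came from the exact binomial distribution of a gene's UMIs between both groups. Shares have exact Clopper-Pearson intervals. The gene intervals were tested on simulated Poisson counts, which hold no spread between cells. TMM factors came from edgeR 4.0.16 in R 4.3.3, and all else from scipy 1.17.1, numpy 2.4.6, pandas 2.3.3 and matplotlib 3.10.9 under Python 3.11.15.

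The members, the 29 gene lists, the marker lists and the tests were chosen with earlier results of these data known. Named genes are the 12 highest and 12 lowest ratios at 50 CPM and 30 UMIs or more, without genes of haemoglobin, ribosomal proteins, mitochondria, T cell receptors or immunoglobulins and unnamed models, all measured granzymes, up to 4 members per list and a short list of NK genes. Other genes in the text were picked after their values were seen. Alternatives were other scalings, pseudocounts, minimum levels and weights of cells, thinning to 1500 UMIs, each gene's highest cell left out, and cells of other types or of low depth left out. Added after the data were seen were the summed spleen populations, the comparison with cells called doublets, a filter on myeloid markers, and all settings for clusters 8 and 11 and for these added comparisons. Comparisons with ad libitum tumour cells inside cluster 0 were planned and not made, for want of cells.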

Additional observations from a re-analysis of the deposited data

How the results depend on the processing

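Of 2950 gene ratios recomputed, 2228 moved by less than their counting interval, 693 by more, and 29 turned sign. A turn of sign was counted only for ratios of at least 2-fold in the main analysis. Smaller ratios that changed sign are among the other numbers. Of 2022 list medians 1828 stayed close. Against all other singlets, the interferon median ran from 1.81 to 2.12 over the settings and that of maturation genes from -1.58 to -1.04. A minimum of 50 CPM, which leaves fewer genes, gave 85 genes lower against all other singlets, 91 higher and 6 lower against cluster 8, 500 and 194 against cluster 11, 107 lower for fasted tumour cells inside against outside, 96 and 80 for refed against fasted cells, 70 and 65 for spleen against tumour cells, 1 and 2 for doublet calls, and 9 lists with a median of at least 1 in place of 5. Thinning to 1500 UMIs, which lowers the counts, gave 248 lower against all others, 348 and 154 against cluster 8, 1331 and 757 against cluster 11, 1305 and 1283 for refeeding, 938 and 698 for spleen, and 22 and 25 for doublet calls. TMM factors gave 94 and 32 against cluster 8 and 552 lower against cluster 11. Totals without ribosomal protein and mitochondrial genes gave 66 and 65, 539 lower, and 111 higher inside. CPM + 1 gave 29 lower against cluster 8 and 301 higher for spleen. The mean over cells gave 50 higher and 136 lower inside, and 306 higher for spleen. Leaving out each gene's highest cell gave 69 and 550 for refeeding, 103 and 271 for spleen, and 4 and 2 for doublet calls. Leaving out cells with markers of other types (127 of 386 in cluster 0, mostly by T cell markers) gave 524 lower against cluster 11, 69 lower inside, 850 lower for refeeding, 378 and 310 for spleen and 6 lower for doublet calls, and leaving out myeloid cells 141 lower inside and 2 lower for doublet calls. Without the deepest cells of each population, the tumour share of cluster 0 was 90.7%, the fasted tumour share in it 41.5% and the spleen share 0.668%. The cause was not tested where the setting itself does not show it.

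Of the ratios that were at least 2-fold in the main analysis, these turned sign. Without cells of other types, S100a9 was at 0.11 against all others, H2-Eb1 at -0.44 against cluster 8, and inside against outside C1qa at 0.33, C1qb at 0.26, Chil3 at 0.11, Il1b at 0.84 and Tgfbi at 0.11. Without myeloid cells, H2-Eb1 was at -0.06, Apoe at 0.09, C1qa at 0.53 and C1qb at 0.53. For refed against fasted cells, Cd74 was at 0.54 without the highest cells and 1.17 without myeloid cells, Upp1 at -0.41 without myeloid cells, and without the highest, other-type and myeloid cells in turn Ifit1bl1 was at -0.39, -2.00 and -0.34, Ifitm2 at -1.19, -1.26 and -1.20, and Lyz2 at -1.01, -1.26 and -1.20. For spleen against tumour cells, Bambi was at -0.05 without the highest and -0.21 without other-type cells, and without other-type and myeloid cells Cd74 was at 1.02 and 0.53 and H2-Ab1 at 0.41 and 0.23. No paired analysis was possible because each population was 1 sample. Comparisons with ad libitum tumour cells were not run, with 3 such cells in cluster 0.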
